A study of Rattus norvegicus with 9 samples.

Results

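The cytochrome P450 genes described here are the Cyp1 family (Cyp1a1, Cyp1a2 and Cyp1b1), the Cyp2a genes (Cyp2a1, Cyp2a2 and Cyp2a3), the Cyp2b genes (Cyp2b1, Cyp2b2 and Cyp2b3) and Cyp2e1 of the rat, with membership set by gene family and chosen from no measured value. Of these 10 genes, 7 had a line in the table of 32883 genes, and Cyp2a1, Cyp2a2 and Cyp2b1 had none under those symbols. Liver mRNA was sequenced from 9 male Sprague-Dawley rats, with 3 rats in each of 3 groups and 1 library per rat. Normal rats received a normal diet only. DEN rats were injected intraperitoneally each week with 0.01% diethylnitrosamine (DEN), a liver carcinogen, over a course of 16 weeks, and PZH rats received the same DEN together with PZH (Pien-Tze-Huang, a patent medicine of Chinese tradition). In every group the rats were fasted before the livers were taken, and the labels name no altered allele. The groups follow the letter that opens each rat's name and the study's methods, since the treatment field of the labels says PZH for DEN rats and PZH rats alike. The study used a low and a high dose of PZH and took livers at several weeks, and which dose and week apply to each sequenced rat is not given in the sources used here, so differences in either cannot be told apart from differences between rats.

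Cytochrome P450 enzymes of these families oxidise foreign compounds at a haem group, with electrons passed on by the reductase Por and cytochrome b5. CYP2E1 and some CYP2A enzymes are known as activators of dialkylnitrosamines such as DEN. Cyp1a1, Cyp1a2 and Cyp1b1 are the classical targets of the aryl hydrocarbon receptor Ahr. The Cyp2b genes are the classical targets of the phenobarbital-responsive receptor CAR (Nr1i3). Cyp1a2 and Cyp2e1 are known from healthy liver as hepatocyte genes of the pericentral zone, whereas Cyp1a1 is known as nearly silent there until it is induced, and Cyp1b1 as expressed mainly outside hepatocytes.

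Library totals ran from 16115709 to 16412520 counts in normal rats, from 15259441 to 16641954 in DEN rats and from 14922973 to 27161496 in PZH rats. Levels are given as CPM, the usual depth-scaled count, after correction by TMM, a factor that sets the bulk of the genes equal between libraries. A count of 3, taken as the lowest that can be read, stood for 0.125 to 0.252 CPM. The TMM factors were 0.731 to 0.799 in normal rats, 1.21 to 1.58 in DEN rats and 0.864 to 0.942 in PZH rats. Changes are log2 fold changes ± SE from edgeR's quasi-likelihood test, and each p was adjusted by Benjamini and Hochberg's method across the genes tested in that comparison. Nothing in the labels says more of the replicates than that they are separate rats. Summed hepatocyte markers (14 genes such as Alb and Ttr) stood at 187126 to 210743 CPM in normal rats, so the tissue carried the markers of liver.

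In the authors' table Cyp1a1 (ENSRNOG00000019500) lies on chromosome 8 at 62472095 to 62478147, with Cyp1a2 (ENSRNOG00000016173) beside it at 62451329 to 62458301. Cyp1b1 (ENSRNOG00000040287) lies on chromosome 6 at 2307808 to 2316722. The other 4 lie on chromosome 1, namely Cyp2b2 (ENSRNOG00000020775) at 83103925 to 83119193, Cyp2b3 (ENSRNOG00000033164) at 83163079 to 83236615, Cyp2a3 (ENSRNOG00000020817) at 83653234 to 83766484 and Cyp2e1 (ENSRNOG00000012458) at 213511874 to 213535542. These lines cover whole genes, exons and introns, and their genome build is not given in the sources used here. The Cyp2a3 line spans 113251 bases, whereas Cyp2a3 itself spans 8067 bases in RefSeq (GRCr8) and is followed there by Cyp2a1 and Cyp2a2, which are known as the liver members of the group, while Cyp2a3 is known from lung and nasal tissue. Which Cyp2a gene the reads of that line came from therefore cannot be told apart, and the same holds for reads that Cyp2b1 may share with its near copy Cyp2b2.

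RefSeq (GRCr8) held a promoter sequence for 8 of the 10 genes, matched by symbol, all except Cyp1a1 and Cyp2a2. The sequences below are the stretch of up to 250 bases before the gene start, 5′ to 3′ on the gene's own strand. They are shown for the 4 genes whose symbols name the lines that fell in DEN rats, to set their start regions side by side. For Cyp2a3 this goes by symbol alone, since the reads of its line may come from other Cyp2a genes. The near copies Cyp2b1 and Cyp2b2 are shown as well, and their 300-base promoter entries were identical at 275 of 283 aligned bases (97.2%). Capitals mark every match on either strand to 4 motifs, none of which overlapped. The motifs were the box found near many start sites, spelled TATAAA, the core bound by Ahr together with Arnt, spelled GCGTG, the site of C/EBP factors, spelled TTGCNNAA, and a binding motif of HNF1, spelled GTTAAT.
Cyp1a2: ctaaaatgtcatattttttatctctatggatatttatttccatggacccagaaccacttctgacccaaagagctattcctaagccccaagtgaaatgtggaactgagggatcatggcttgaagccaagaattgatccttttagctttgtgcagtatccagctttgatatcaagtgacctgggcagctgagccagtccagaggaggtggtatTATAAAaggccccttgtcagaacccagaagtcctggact
Cyp2a3: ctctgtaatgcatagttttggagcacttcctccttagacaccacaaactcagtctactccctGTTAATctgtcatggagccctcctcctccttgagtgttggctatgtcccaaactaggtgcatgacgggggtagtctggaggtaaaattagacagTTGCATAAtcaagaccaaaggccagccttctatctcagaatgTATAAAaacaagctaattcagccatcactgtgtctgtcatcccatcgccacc
Cyp2b1: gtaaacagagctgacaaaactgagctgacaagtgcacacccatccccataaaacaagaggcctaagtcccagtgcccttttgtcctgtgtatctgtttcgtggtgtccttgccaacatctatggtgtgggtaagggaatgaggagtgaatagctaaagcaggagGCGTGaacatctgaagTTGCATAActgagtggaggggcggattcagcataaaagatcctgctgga
Cyp2b2: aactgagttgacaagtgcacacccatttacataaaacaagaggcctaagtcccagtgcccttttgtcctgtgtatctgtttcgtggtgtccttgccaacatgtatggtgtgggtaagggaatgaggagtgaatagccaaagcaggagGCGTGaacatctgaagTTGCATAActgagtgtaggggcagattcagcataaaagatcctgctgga
Cyp2b3: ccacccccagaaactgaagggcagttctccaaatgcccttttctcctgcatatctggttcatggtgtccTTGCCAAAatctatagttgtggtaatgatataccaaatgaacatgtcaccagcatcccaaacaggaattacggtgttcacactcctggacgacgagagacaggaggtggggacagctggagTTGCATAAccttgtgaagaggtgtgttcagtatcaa
Cyp2e1: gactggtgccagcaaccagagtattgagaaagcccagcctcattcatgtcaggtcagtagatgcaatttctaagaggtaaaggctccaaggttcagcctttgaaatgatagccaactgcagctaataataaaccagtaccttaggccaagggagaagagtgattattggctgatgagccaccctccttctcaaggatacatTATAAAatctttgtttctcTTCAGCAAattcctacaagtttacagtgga
These stretches are chr8:66978150-66978399 on the minus strand for Cyp1a2 and, on the plus strand, chr1:91299334-91299583 for Cyp2a3, chr1:90645869-90646097 for Cyp2b1, chr1:90722031-90722242 for Cyp2b2, chr1:90780242-90780467 for Cyp2b3 and chr1:205269717-205269966 for Cyp2e1. The C/EBP letters TTGCNNAA were found in the 250-base windows searched for Cyp2a3, Cyp2b1, Cyp2b2, Cyp2b3 and Cyp2e1, against 9.22% of 33469 rat promoters. The first 4 of these genes each held TTGCATAA, and Cyp2b3 held TTGCCAAA as well. The promoter entries of the Cyp2b genes were 81.4% to 97.2% identical, so their matches are not separate cases. Their windows ran into the RefSeq span of the gene, and that part is not printed. The letters GCGTG stood in the windows of Cyp2b1 and Cyp2b2 and in that of Cyp1b1, which lies inside the gene's RefSeq span and is not printed, against 25.9% of all promoters. TATAAA stood before Cyp1a2, Cyp2a1, Cyp2a3 and Cyp2e1, against 12.9% of promoters, and GTTAAT before Cyp2a3, against 6.45%. A match describes letters and is no evidence of binding.

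DEN rats were compared with normal rats to find what the carcinogen course did to these genes. Cyp1a2, Cyp2e1, Cyp2a3 and Cyp2b3 fell, while Cyp1a1 and Cyp1b1 rose from near the detection floor and Cyp2b2 did not pass the test. At an adjusted p under 0.05, 2 were higher and 4 lower, where 45.8% of all 14255 genes tested passed, 25.3% as higher and 20.5% as lower. The 2 higher genes, Cyp1a1 and Cyp1b1, passed the filter on low counts only through the DEN rats, where they are high. They are counted in the tallies below as well. With no such filter both kept their calls in edgeR's test (adjusted p = 0.0032 and 0.0015). The split over all genes follows the scaling, since 3612 of 6529 calls over all genes were higher with TMM, 8126 of 9084 with library totals and 11114 of 11449 when scaled on hepatocyte markers. Of the 7 genes, 2 of 6 calls were higher with library totals and 2 of 5 when scaled on hepatocyte markers. The stricter thresholds of the study ask for a change of more than 2 on the log2 scale and P under 0.001 before adjustment, and 5 passed them, where 12.3% of all genes did. The groups did not overlap for 6 of the 7, against 58.8% of all genes, and the 7 changes had a median of -1.58 in log2, against 0.03 over all genes.

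Cyp2e1, an ethanol-inducible enzyme that opens the activation of DEN, had the highest mean level of the 7 genes in each group, in CPM as in the length-scaled FPKM, although not in every DEN rat. It stood at 2769, 4947 and 4112 CPM in normal rats 1, 12 and 3. In DEN rats 13, 17 and 24 it stood at 149, 629 and 184 CPM, so that every DEN rat lay far below every normal rat. Cyp2e1 fell by 3.61 ± 0.63 on the log2 scale, to 8.21% of its normal level (adjusted p = 0.0024). The change was -4.55 without DEN rat 17 and -3.26 without DEN rat 13. With PZH it stood at 3106, 3421 and 1844 CPM in rats 27, 28 and 42, above all DEN rats and within or below the normal range. It rose by 3.15 ± 0.61 over DEN (adjusted p = 0.016), or by 4.07 without DEN rat 17. The call was lost without DEN rat 13 (2.80, adjusted p = 0.062) and without DEN rat 24 (2.87, adjusted p = 0.054). Against normal rats the difference of Cyp2e1 was -0.50 ± 0.32, with a 95% interval from -1.23 to 0.23 (adjusted p = 0.47).

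The line named Cyp2a3 may hold reads of several Cyp2a genes, and whether their enzymes activate DEN in this liver was not tested. It had 983, 879 and 931 CPM in normal rats and 112, 237 and 133 CPM in DEN rats. The normal rats lay close together, with an SD of 5.62% of their mean, and the DEN rats were all lower. It fell by 2.52 ± 0.34 on the log2 scale, to 17.4% of normal (adjusted p = 0.00074, the lowest of the 7 genes). PZH rats had 797, 590 and 541 CPM, above every DEN rat and below every normal rat. The rise over DEN was 2.03 ± 0.34 (adjusted p = 0.012), and the difference from normal was -0.53 ± 0.22 with a 95% interval from -1.03 to -0.03, which did not pass after adjustment (adjusted p = 0.24).

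Cyp1a2, which oxidises caffeine and aromatic amines, had 415, 380 and 315 CPM in normal rats. In DEN rats it had 21.3, 51.7 and 8.28 CPM, with no overlap. It fell by 3.75 ± 0.59, to 7.41% of normal (adjusted p = 0.0016). Without DEN rat 17 the change was -4.63, and without DEN rat 24 it was -3.31. In PZH rats the levels were spread widely, at 398, 234 and 83.0 CPM, so that rat 27 was in the normal range and rat 42 nearer to the DEN rats. The rise over DEN was 3.17 ± 0.76 (adjusted p = 0.026), with 4.02 without DEN rat 17 and 2.57 without PZH rat 27 (adjusted p = 0.064), and the difference from normal was -0.63 ± 0.45, with a 95% interval from -1.66 to 0.40 (adjusted p = 0.53).

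Cyp1a1, the neighbour of Cyp1a2 on chromosome 8 and the usual readout of Ahr activation, moved the other way. It had 22, 2 and 11 counts in normal rats, or 1.72, 0.153 and 0.922 CPM, the middle one at or under the floor. DEN rats had 12.3, 30.3 and 5.24 CPM and PZH rats 15.3, 7.58 and 13.4 CPM. Both groups given DEN lay wholly above the normal rats and overlapped each other. Cyp1a1 rose by 4.11 ± 0.80 in DEN rats (17.3-fold, adjusted p = 0.0039) and by 3.70 ± 0.61 in PZH rats against normal (adjusted p = 0.012). The rise in DEN rats was 3.24 without DEN rat 17 and 4.90 without normal rat 1, and that in PZH rats was 4.47 without normal rat 1. Between PZH and DEN rats the difference was -0.37 ± 0.57, with a 95% interval from -1.67 to 0.94 (adjusted p = 0.68), an interval that holds falls as well as rises. Without DEN rat 17 that difference was 0.47.

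Cyp1b1, an enzyme of oestrogen and arene oxidation, had 2, 16 and 0 counts in normal rats, at most 1.22 CPM. DEN rats had 22.04, 6.78 and 37.9 CPM, all above the normal rats, a rise of 5.56 ± 0.94 (adjusted p = 0.0021), whose size rests on the 18 counts of the normal group and was 8.01 without normal rat 12 and 4.95 without DEN rat 24. PZH rats had 1.58, 4.87 and 1.99 CPM, below every DEN rat and above every normal rat. Cyp1b1 fell by 2.98 ± 0.66 from DEN to PZH (adjusted p = 0.022). The change was -3.61 without PZH rat 28 and -2.35 without DEN rat 24 (adjusted p = 0.066). Against normal rats the difference was 2.57 ± 0.94, with a 95% interval from 0.44 to 4.70, and did not pass after adjustment (adjusted p = 0.18).

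Cyp2b3, a constitutive member of the Cyp2b genes, had the smallest SD relative to its mean of the 7 genes in every group. It stood at 755, 737 and 775 CPM in normal rats, at 206, 337 and 208 in DEN rats and at 602, 627 and 533 in PZH rats. The 3 groups did not overlap. It fell by 1.58 ± 0.28 in DEN rats, to 33.5% of normal (adjusted p = 0.0025), and rose by 1.26 ± 0.27 from DEN to PZH (adjusted p = 0.02). The PZH rats differed from normal by -0.36 ± 0.19, with a 95% interval from -0.79 to 0.07 (adjusted p = 0.36).

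Cyp2b2, a phenobarbital-inducible enzyme, was low in every group. It had 16.1, 22.1 and 11.8 CPM in normal rats, 3.99, 15.7 and 8.07 in DEN rats and 28.8, 69.0 and 20.6 in PZH rats. DEN and normal rats overlapped, with a difference of -0.84 ± 0.46 and a 95% interval from -1.88 to 0.20 (adjusted p = 0.17). Without DEN rat 17 that difference was -1.45 and passed (adjusted p = 0.015). From DEN to PZH, Cyp2b2 rose by 2.12 ± 0.58 (adjusted p = 0.039). That call was lost in 6 of 14 alternatives, the most of the 7 genes, with a change of 1.46 without PZH rat 28 (adjusted p = 0.11) and of 2.71 without DEN rat 17. It was the only one of the 5 genes higher with PZH than with DEN whose mean stood above the normal mean (39.5 ± 25.9 against 16.7 ± 5.17 CPM, SD, n = 3), a difference of 1.25 ± 0.43, with a 95% interval from 0.27 to 2.22, that did not pass after adjustment (adjusted p = 0.15).

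**Figure D1:**
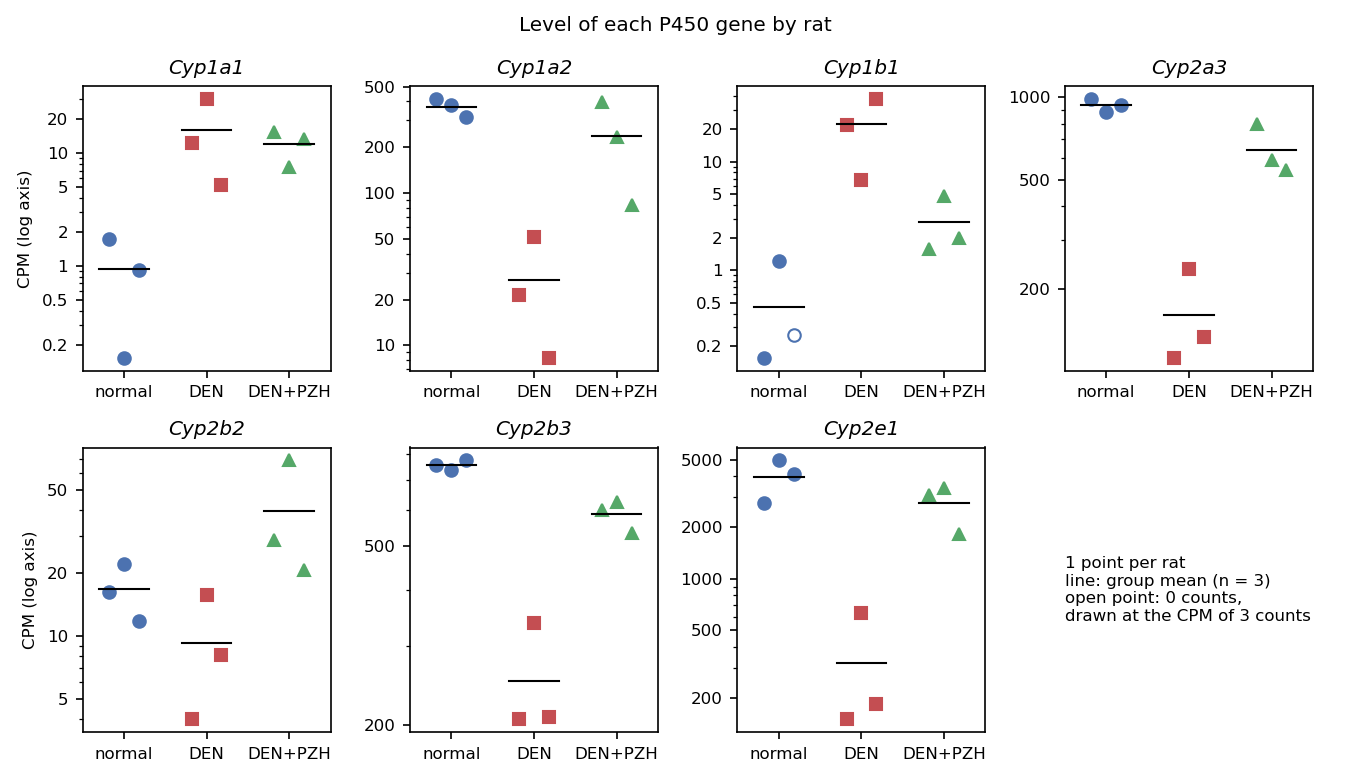
Level of each gene in every rat, in CPM on a log axis, with 1 point per rat and a line at the group mean (n = 3). DEN rats (squares) lie below both other groups for Cyp1a2, Cyp2a3, Cyp2b3 and Cyp2e1, while for Cyp1a1 the PZH rats (triangles, 7.58 to 15.3) overlap with the DEN rats (5.24 to 30.3). The open point for Cyp1b1 is the normal rat with 0 counts, drawn at the CPM of 3 counts.

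PZH rats were compared with DEN rats to find what the drug changed on top of DEN. Of the 7 genes, 5 were higher and 1, Cyp1b1, was lower at an adjusted p under 0.05, where 19.1% of 14272 genes passed, 8.72% as higher and 10.3% as lower. Cyp2a3 and Cyp2e1 also passed the study's thresholds, as 2.43% of all genes did. For 6 of the 7 the groups did not overlap, against 40.9% of all genes, and the median was 2.03, against 0.01 over all genes. Because both comparisons use the DEN rats, a high or low DEN rat moves both in opposite directions. Without DEN rat 13 none of the 6 passed edgeR's adjusted test and all 6 had an unadjusted p under 0.05, with changes of 3.02 for Cyp1a2, -2.99 for Cyp1b1, 1.82 for Cyp2a3, 1.75 for Cyp2b2, 1.13 for Cyp2b3 and 2.80 for Cyp2e1, while the calls over all genes went from 2722 to 271. The call of Cyp2a3 alone was left without DEN rat 24, and 3 calls were left without PZH rat 27 and 3 without PZH rat 28. With library totals in place of TMM, 556 of 6252 calls over all genes were higher, and when scaled on hepatocyte markers 162 of 11109, instead of 1245 of 2722.

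Against normal rats, the PZH rats differed by test in Cyp1a1 alone, which was 1 of 7 genes where 5.21% of 13348 genes passed, 4.07% as higher and 1.15% as lower. It passed the filter on low counts only through the PZH rats, where it is high. Cyp1a1 also passed the study's thresholds, as 2.32% of all genes did, although not without normal rat 3. The groups did not overlap for Cyp1a1, Cyp1b1, Cyp2a3 and Cyp2b3, against 24.2% of all genes. The median was -0.36, against -0.02 over all genes. For the other 6 genes a missed threshold does not show a return to the normal level, and the 95% intervals of Cyp1b1, Cyp2a3 and Cyp2b2 did not include 0. Over all genes 543 of 696 calls were higher, against 818 of 909 with library totals.

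**Figure D2:**
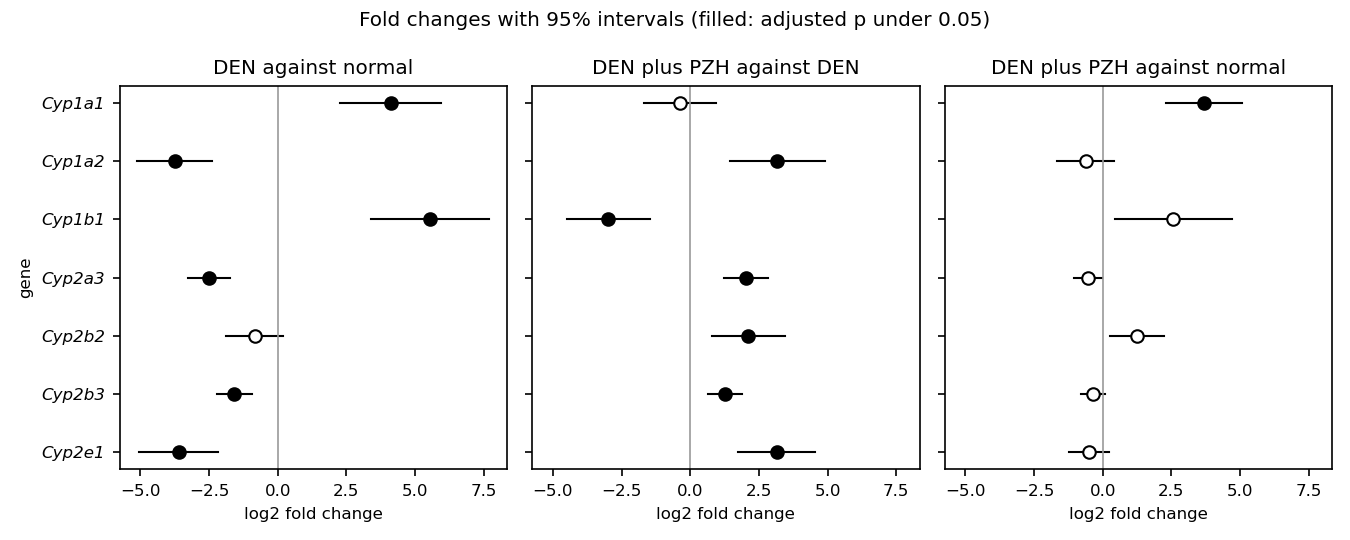
Log2 fold change of each gene in the 3 comparisons, with lines for the 95% interval, filled where the adjusted p was under 0.05 (6 rats in each comparison). Cyp1a1 sits at 4.11 in DEN rats and at 3.70 in PZH rats against normal, with -0.37 between them, whereas Cyp2e1 sits at -3.61, -0.50 and 3.15 in those comparisons.

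The neighbours Cyp1a1 and Cyp1a2 were also compared within each rat, as the ratio of their counts with 0.5 added to each. Cyp1a1 counts were 0.423%, 0.0501% and 0.306% of Cyp1a2 counts in normal rats. These normal ratios rest on 22, 2 and 11 Cyp1a1 counts, the middle one under the floor of 3, so their size is uncertain. In DEN rats they were 57.6%, 58.6% and 63.4%, although the level of either gene differed about 6-fold between those rats (5.78-fold for Cyp1a1 and 6.24-fold for Cyp1a2). PZH rats lay between, at 3.84%, 3.25% and 16.2%. The mean log2 ratio was -9.07 ± 1.66 in normal, -0.74 ± 0.07 in DEN and -4.09 ± 1.27 in PZH rats (SD, n = 3). The 3 groups did not overlap, and each pair gave p = 0.1 in an exact two-sided permutation test (adjusted p = 0.15 over 6 tests). A p of 0.1 is the smallest that 3 rats against 3 allow. For DEN and for PZH against normal rats, the levels of the single genes given above already fix this separation. The ratio therefore adds no support there. For Cyp2b2 to Cyp2b3 the mean log2 ratio was -5.54 ± 0.49, -4.93 ± 0.66 and -4.09 ± 0.80 in the same order. DEN overlapped with both other groups (exact permutation p = 0.3 each), and PZH lay above normal (exact permutation p = 0.1, adjusted p = 0.15).

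**Figure D3:**
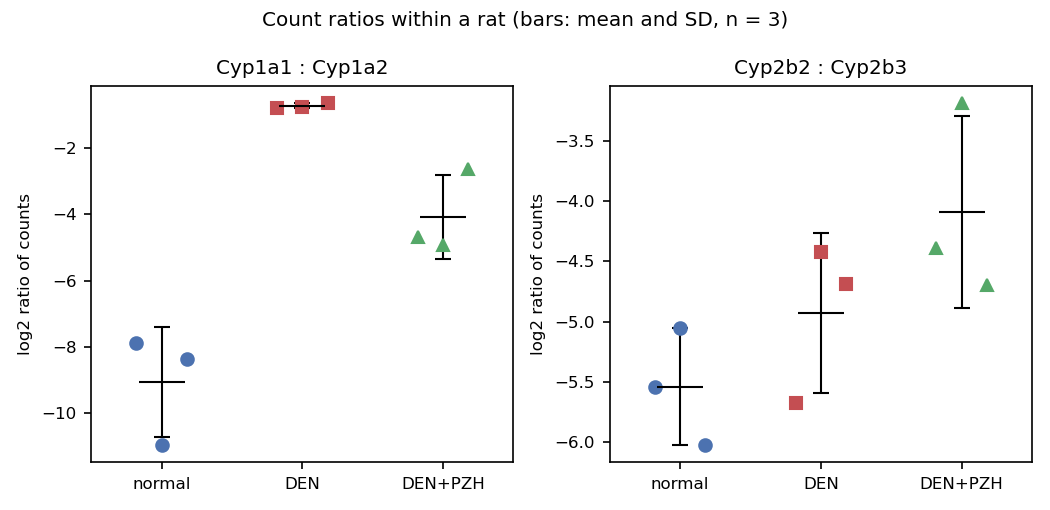
Log2 ratio of counts within each rat for Cyp1a1 to Cyp1a2 and for Cyp2b2 to Cyp2b3, with points for rats and bars for the mean and SD (n = 3). The 3 DEN rats sit together near -0.74 for Cyp1a1 to Cyp1a2, the normal rats lie from -10.96 to -7.89, and the PZH rats lie from -4.94 to -2.63. The normal values rest on few Cyp1a1 counts (22, 2 and 11).

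Levels of different genes were compared as the deposited FPKM, which is scaled for gene length and library total without TMM. In normal rats the order was Cyp2e1 (1212 ± 348), Cyp2b3 (218 ± 6.47), Cyp1a2 (148 ± 26.5), Cyp2a3 (91.2 ± 6.72), Cyp2b2 (6.52 ± 2.26), Cyp1a1 (0.273 ± 0.236) and Cyp1b1 (0.055 ± 0.0797), in FPKM with SD. Only the last pair overlapped in range. In DEN rats the FPKM of Cyp2e1 was 169 ± 117 and that of Cyp2b3 was 130 ± 20.3, and Cyp2b3 stood above Cyp2e1 in DEN rats 13 and 24 but in none of the other 7 rats. By mean FPKM over the 3 DEN rats, Cyp2a3 (27.9 ± 7.75) came next, below Cyp2b3 with no overlap, and then Cyp1a2 (18.4 ± 12.9), Cyp1a1 (7.996 ± 5.49), Cyp2b2 (6.28 ± 3.28) and Cyp1b1 (5.04 ± 3.87). From Cyp2a3 down each overlapped in range with the next, and the order of the last 4 differed from rat to rat. With PZH the order was again Cyp2e1 (1005 ± 291), Cyp2b3 (199 ± 15.8), Cyp1a2 (109 ± 68.2), Cyp2a3 (73.5 ± 11.9), Cyp2b2 (18.1 ± 12.2), Cyp1a1 (4.15 ± 1.28) and Cyp1b1 (0.389 ± 0.255), where Cyp1a2 and Cyp2a3 overlapped. The FPKM of Cyp2a3 rests on a length of 7919 bases, long for a single P450 transcript, which lowers its place in this order.

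All 71 lines named Cyp took 2.78% to 3.04% of counts in normal rats, 0.486% to 0.900% in DEN rats and 1.59% to 2.11% in PZH rats. The 7 genes made up 13.5% to 20.0%, 15.3% to 18.9% and 18.01% to 21.9% of that CPM in the same order, ranges that overlap. Within the 7, Cyp2e1 alone held 56.0% to 71.0% of the CPM in normal rats, 28.4% to 48.1% in DEN rats and 60.7% to 69.1% in PZH rats. The drop of the P450 share was seen in the other Cyp lines too, and the share of Cyp2e1 among the 7 did not overlap between DEN rats and the others.

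The proteins that serve or regulate these genes were counted from lists. Of 5 redox partners, 3 fell in DEN rats, among them Por, the electron donor (-2.07 ± 0.33, adjusted p = 0.0016), and Cyb5a (-1.48 ± 0.30, adjusted p = 0.0049). From DEN to PZH 2 rose, Cyb5a (1.43 ± 0.29, adjusted p = 0.017) and Cyb5b (0.73 ± 0.21, adjusted p = 0.043). Of 11 genes of haem synthesis and breakdown, 4 fell in DEN rats, led by Alad (-1.19 ± 0.19, adjusted p = 0.0017), and 3 rose with PZH. All list counts are to be read against the 25.3% of all genes called higher and 20.5% called lower in DEN rats, and the 8.72% and 10.3% from DEN to PZH. For PZH against normal rats those shares were 4.07% and 1.15%, so the absence of calls in a short list says little there. Between PZH and normal rats none of either list passed edgeR's adjusted test, with 1 redox partner and 0 haem genes at an unadjusted p under 0.05.

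Of 10 xenobiotic receptors and partner factors tested, 6 fell in DEN rats and none rose, with 0 higher at an unadjusted p under 0.05. Between PZH and normal rats none passed edgeR's adjusted test, and 2 were lower at an unadjusted p under 0.05. The lowest p-values were those of Cebpa, the C/EBP factor of hepatocytes (-1.69 ± 0.23, adjusted p = 0.00078), and Hnf4a (-1.64 ± 0.29, adjusted p = 0.0024). From DEN to PZH 3 rose, among them Cebpa (1.29 ± 0.26, adjusted p = 0.017) and Ppara (1.23 ± 0.28, adjusted p = 0.024). Ahr itself, singled out here after its values were seen, did not pass in DEN against normal (-0.39 ± 0.19, adjusted p = 0.14) or in PZH against DEN (0.16 ± 0.26, adjusted p = 0.7). The same was so for CAR (Nr1i3), at -0.53 ± 0.48 (adjusted p = 0.4) and 1.02 ± 0.35 (adjusted p = 0.075).

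Among 4 other Ahr targets tested, 3 rose in DEN rats and 2 of these, Aldh3a1 and Nqo1, were also higher in PZH than in normal rats, as Cyp1a1 was. The remaining 1, Tiparp, went the other way in DEN rats, lower at an unadjusted p under 0.05 only (-0.49 ± 0.19, adjusted p = 0.06). Aldh3a1, an aldehyde dehydrogenase, had 0 counts in 2 normal rats and 0.153 CPM in the third, 98.6, 59.6 and 146 CPM in DEN rats 13, 17 and 24, and 24.6, 194 and 53.1 CPM in PZH rats 27, 28 and 42. Nqo1, a quinone reductase that also answers to the oxidative stress factor Nrf2, rose by 3.77 ± 0.37 in DEN rats (adjusted p = 0.00023). It fell by 1.03 ± 0.25 from DEN to PZH (adjusted p = 0.027) and stayed 2.71 ± 0.32 above normal (adjusted p = 0.0041). Of 7 other CAR targets, 3 rose in DEN rats, led by the export pumps Abcc3 (4.94 ± 0.23, adjusted p = 1.7e-05) and Abcc4 (2.67 ± 0.34, adjusted p = 0.00064), and 1, Por, fell. Of the 7, 3 were higher in PZH than in normal rats, led by Abcc3 (4.26 ± 0.27, adjusted p = 0.00089) and Ephx1 (1.47 ± 0.25, adjusted p = 0.014), and none passed edgeR's adjusted test from DEN to PZH, with 1 higher and 2 lower at an unadjusted p under 0.05. A list of 11 genes covered repair of alkylated DNA, the kind of damage DEN leaves, and base excision repair at large. Of these, 4 fell in DEN rats, where 20.5% of all genes did, and 2 rose with PZH, where 8.72% did. The lowest p in DEN rats was that of Ung, which removes uracil (-1.55 ± 0.28, adjusted p = 0.0027).

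Markers of cell types moved with these genes. Of 14 hepatocyte markers, 7 fell in DEN rats and 5 rose from DEN to PZH, and their summed level was 187126 to 210743 CPM in normal rats, 41060 to 98554 in DEN rats and 151926 to 205912 in PZH rats. Of 10 pericentral genes tested, 6 fell in DEN rats and 5 rose with PZH, and of 9 periportal genes 8 fell and 2 rose. Stellate cell and myofibroblast markers went the other way, with 10 of 12 higher in DEN rats, 8 lower from DEN to PZH and sums of 291 to 412, 1322 to 3652 and 738 to 865 CPM. All 7 cholangiocyte markers rose in DEN rats and fell from DEN to PZH, with sums of 13.3 to 21.0, 246 to 783 and 82.9 to 110 CPM, and all 7 were higher in PZH than in normal rats. Of 8 macrophage markers, 1 rose and 3 fell in DEN rats, as did 2 and 3 of 7 endothelial markers, while 3 of 7 lymphocyte markers and 1 of 5 red cell genes rose. From DEN to PZH, 4 macrophage markers, 4 red cell genes and 1 of 5 lymphocyte markers fell, and of the endothelial markers 1 rose and 1 fell. Fewer cells of a type and less RNA per cell cannot be told apart in bulk tissue, and the part of cell makeup in the results was not tested.

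DEN rat 17 stood apart among the DEN rats in the same direction for nearly all of this. It had the highest hepatocyte sum (98554 CPM, against 57467 in rat 13 and 41060 in rat 24) and the lowest stellate (1322 CPM) and cholangiocyte (246 CPM) sums of the DEN rats. It also had the highest level of 6 of the 7 P450 genes and the lowest of Cyp1b1 among them. Cyp1a1 was highest in the DEN rat with the highest hepatocyte sum. Cyp1b1 was highest in rat 24, which had the highest stellate (3652 CPM), cholangiocyte (783 CPM) and lymphocyte (161 CPM) sums of the DEN rats. Rat 24 did not have the highest macrophage, endothelial or red cell sum. Which cell type the Cyp1b1 reads came from was not tested.

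When libraries were scaled on the summed hepatocyte markers, a choice made after the data were seen, the median change of all genes was 1.82 in DEN against normal rats. That scale leans on Alb, with 101777 of the 209107 CPM summed in normal rat 1 and 21015 of 57467 in DEN rat 13. With TMM, single markers changed by between -3.89 (Ttr) and -0.30 (Apoa1) in DEN rats. Cyp1a2, Cyp2a3 and Cyp2e1 still fell in DEN rats on that scale, at -2.33, -0.86 and -2.14. Cyp2b3 (0.11) and Cyp2b2 (0.76) did not. From DEN to PZH, where the median of all genes was -1.59, Cyp1a2 and Cyp2e1 still rose and Cyp1b1 still fell. Cyp2a3 (0.53, adjusted p = 0.23), Cyp2b2 (0.70, adjusted p = 0.18) and Cyp2b3 (-0.24, adjusted p = 0.58) did not pass, and Cyp1a1 fell by 1.64 (adjusted p = 0.0033).

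**Figure D4:**
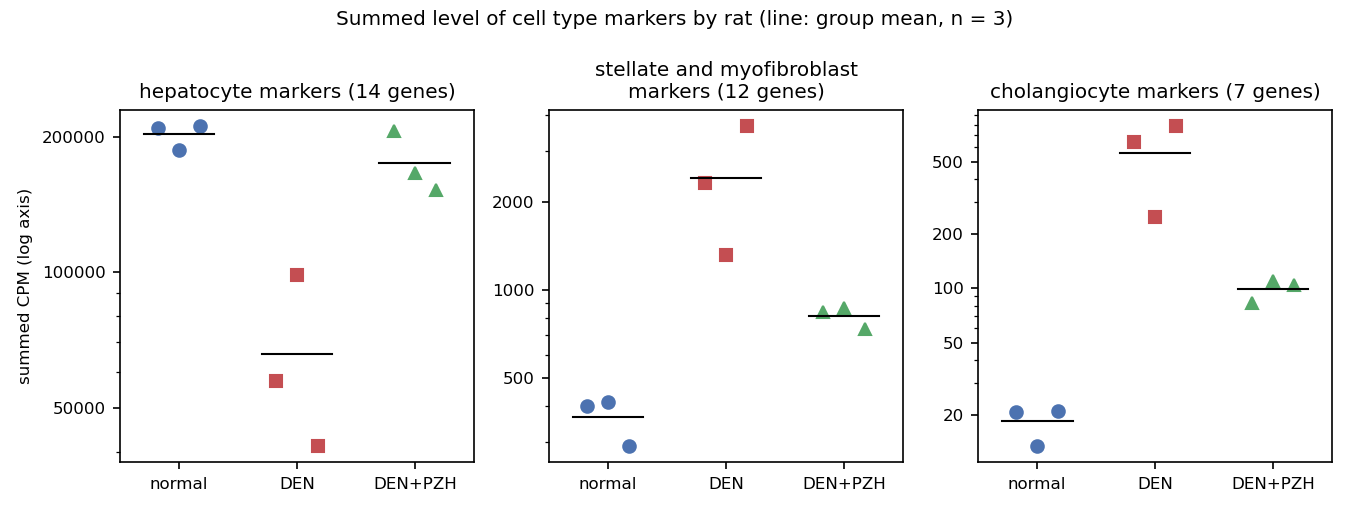
Summed CPM of hepatocyte, stellate and myofibroblast, and cholangiocyte markers in every rat, on log axes, with 1 point per rat and a line at the group mean (n = 3). DEN rats (squares) are lowest for hepatocyte markers and highest for the other lists, and PZH rats (triangles) lie between the DEN and normal rats for stellate and cholangiocyte markers.

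The genes whose pattern lay nearest to each P450 gene were sought among 7714 genes with a mean of at least 10 CPM, as the root mean square difference of centred log2(CPM + 1) values over the 9 rats. The genes nearest to Cyp2b3 were Icoslg (0.0907), Cmbl (0.0994) and Ppara (0.103). Those nearest to Cyp2a3 were Cyp4f1 (0.166), Cyp2d5 (0.181) and Ghr (0.184), the first pair being P450 genes themselves. Cyp1b1 lay nearest to Ano1 (0.268), Slc25a24 (0.379) and Ndrg1 (0.391), and Cyp2e1 to Slc10a1, the bile acid importer of hepatocytes (0.324), Apon (0.327) and Serpina4 (0.331). For Cyp1a2 they were Azgp1 (0.364), Gnmt (0.430) and Apoc3 (0.447), and for Cyp2b2 the esterases Ces1d (0.494) and Ces2h (0.524) with Ddc (0.545). For Cyp1a1 they were Kifc3 (0.694), Ces2 (0.710) and Akr7a3 (0.721). The distance grows with a gene's own spread, which was smallest for Cyp2b3 (0.73), 1.01 for Cyp2b2, 1.501 for Cyp1a1 and largest for Cyp1a2 (1.92), on the same scale. These distances describe 9 libraries of 3 groups and carry no test.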

How the data were processed

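Liver mRNA of 9 rats, 3 per group, was used. The authors deposited counts of reads per gene and rat, not normalized, and FPKM values scaled by the authors for gene length and total counts. The submitters' processing notes name fastp, HISAT2 2.1.0, StringTie 1.3.3b and edgeR 3.30.3, and the genome build is not given in the sources used here. The table also holds the authors' own fold changes and p-values, which were not used.

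Counts were tested with edgeR 4.0.16 (R 4.3.3) on the 6 rats of each comparison, with filterByExpr, TMM, glmQLFit and glmQLFTest, and Benjamini-Hochberg adjustment over all genes tested. Intervals of fold changes are 95% intervals from the SE and the test's degrees of freedom. Floors cover counting error only. The pipeline was tested on simulated data. Alternatives were DESeq2 1.42.0, limma 3.58.1 on log2(FPKM + 0.1), library totals, other filters, 1 fit of all 3 groups, thinned libraries, each rat left out and, added later, scaling on hepatocyte markers. The planned ratios of Cyp2b1 to Cyp2b2 and of Cyp2a1 to Cyp2a2 could not be run, since those genes had no line, and Cyp1a1 to Cyp1a2 and Cyp2b2 to Cyp2b3 were taken instead. All 7 genes were named, with up to 2 genes of lowest p per direction from each list. Membership follows gene family alone, but the families and the lists were picked for description with earlier results of these data known.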

Additional observations from a re-analysis of the deposited data

How the results depend on the processing

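Of 290 alternative fold changes of the 7 genes, 261 kept their direction and their side of the adjusted threshold, 22 lost the call, 3 gained one and 4 turned. The 4 that turned were Cyp2b2 (0.76) and Cyp2b3 (0.11) in DEN against normal and Cyp2b3 (-0.24) in PZH against DEN when scaled on hepatocyte markers, and Cyp1a1 in PZH against DEN without DEN rat 17 (0.47, with a range of -0.79 to 0.47 over the rats left out). In DEN against normal, Cyp1a1, Cyp1a2, Cyp1b1, Cyp2a3 and Cyp2e1 kept their calls under every alternative that tested them.

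In DEN against normal, 3 of the 7 genes passed the study's thresholds, instead of 5, with at least 10 counts required in every rat, a filter that removed Cyp1a1 and Cyp1b1, and 1 to 4 passed with a rat left out, the fewest without normal rat 3. Over all genes 938 passed with at least 10 counts and 1299 without normal rat 3, against 1753 in the main fit. In PZH against DEN, 0 to 6 passed the adjusted test with a rat left out, and without DEN rat 13 only 271 of all genes did, against 2722. The thresholds there were passed by 5 genes with DESeq2, by 1 with at least 10 counts, by 1 with limma on FPKM and by 1 when scaled on hepatocyte markers, instead of 2, and by 0 to 4 with a rat left out (0 without DEN rat 13, DEN rat 24, PZH rat 27 or PZH rat 28, with 6 at an unadjusted p under 0.05 in each case). Over all genes 648, 245, 785 and 3872 passed in those 4 settings, against 347 in the main fit. With a rat left out, 160 to 692 of all genes passed. In PZH against normal, DESeq2 called 2 genes (Cyp1a1 and Cyp2b2). At least 10 counts in every rat left 5 genes, of which 0 passed either rule, 1 with an unadjusted p under 0.05. The thresholds were passed by 0 to 1 with a rat left out.

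Scaling by library totals alone put the median of all genes at 0.89 in DEN against normal and -0.67 in PZH against DEN and turned no fold change of the 7, though Cyp2b3 missed the threshold in PZH against DEN (0.62, adjusted p = 0.051). No paired analysis was possible because the groups share no rat numbers. Depth limits Cyp1a1 and Cyp1b1 in normal rats, with 35 and 18 counts in all.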
